A study of Homo sapiens with 2 samples.

Results

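Heterogeneous nuclear ribonucleoproteins (hnRNPs) were followed through 10 of their genes, namely HNRNPA1, HNRNPA2B1, HNRNPC, HNRNPD, HNRNPDL, HNRNPH1, HNRNPK, HNRNPL, HNRNPM and PTBP1. The deposited files list reads by exon without a gene name, so each gene was taken as the exon rows that lie inside its window of the hg19 genome on its own strand. This gave 121 of the 239322 exon rows, from 8 rows of HNRNPA1 to 18 of HNRNPK. RNA came from Huh-7, a human hepatocellular carcinoma cell line, exposed for 24 h either to 0.1% DMSO, the control, or to 0.1 mM BS008, an amiloride derivative that the study examined for its action on alternative splicing. Each condition was 1 library, so no difference below has a replicate check, no test was made, and every interval covers counting error only. The treatment field of the labels was used to tell the libraries apart, because the protocol text attached to both names BS008. The depth was 55476654 exon reads for the control and 53578432 for BS008. Hepatocyte markers were abundant in both libraries, with 274038 and 308359 reads on ALB, 133300 and 88052 on AFP, 28997 and 21372 on APOA1 and 132026 and 106303 on APOA2, whereas PTPRC, a leukocyte marker, had 0 reads in both, at a floor of 3 counts.

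The hnRNPs are abundant nuclear proteins that coat nascent transcripts and take part in splicing, export and mRNA turnover, and members differ in the short sequences they bind. Many of their genes also control their own output, through alternative exons whose inclusion or skipping marks the transcript for nonsense-mediated decay. Where the inclusion of such an exon changes, its row can move apart from the rest of its gene in exon counts. A row that moves apart need not be such an exon.

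The sequences below are of 7 alternative exons, and shares of reads on their rows are given in the results. For PTBP1 exon 2, printed with 31 bases, the share given is that of a row of 38 bases. The HNRNPC exon and PTBP1 exons 2 and 9 were picked after values were seen. The others were known exons matched by length, shown whether or not their share moved. The exon is in capitals, the lower-case bases are its neighbours in the spliced transcript, and all were read from GENCODE transcripts. The exon of HNRNPC lies in the 5′ untranslated region of the transcript shown. Those of PTBP1, HNRNPA2B1 and HNRNPD are coding.
HNRNPC 26-base exon: tgTGAGATTTTTTTGATCTTCAGCTACAtt
PTBP1 exon 2: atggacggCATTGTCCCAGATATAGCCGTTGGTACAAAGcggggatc
PTBP1 exon 9: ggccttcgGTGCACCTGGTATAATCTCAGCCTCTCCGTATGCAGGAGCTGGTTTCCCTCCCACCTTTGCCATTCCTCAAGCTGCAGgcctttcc
PTBP1 exon 11: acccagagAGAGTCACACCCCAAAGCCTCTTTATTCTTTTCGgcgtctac
HNRNPA2B1 B1 exon: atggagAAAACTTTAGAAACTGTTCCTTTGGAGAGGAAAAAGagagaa
HNRNPD exon 2: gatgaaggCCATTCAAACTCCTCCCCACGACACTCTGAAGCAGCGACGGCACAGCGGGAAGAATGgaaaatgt
HNRNPD exon 7: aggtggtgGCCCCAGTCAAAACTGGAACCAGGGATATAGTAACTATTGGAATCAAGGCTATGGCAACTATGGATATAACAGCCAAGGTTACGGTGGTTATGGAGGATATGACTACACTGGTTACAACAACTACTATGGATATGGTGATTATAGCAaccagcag

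Reads were first summed over the rows of each gene and divided by the library total. HNRNPD, HNRNPM and HNRNPA2B1 were lower by at least 1.5-fold with BS008, HNRNPDL was at least 1.5-fold higher, and the other 6 genes were within 1.5-fold. The same limit was passed by 18.6% of runs of neighbouring rows in the whole files on the lower side and by 14.1% on the higher side. A run is a stretch of at least 5 rows on one strand with at least 1000 reads, and it may hold more than 1 gene. The median log2 ratio of BS008 to control was -0.28 over the 10 genes and -0.07 over the 5996 runs. At 2-fold, 2 of the 10 genes were lower and 0 were higher, against 6.49% and 5.84% of the runs. In bulk RNA, less RNA per cell and fewer cells that make it cannot be told apart. All 10 genes together held 0.753% of the control reads and 0.580% of the BS008 reads.

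**Figure D1:**
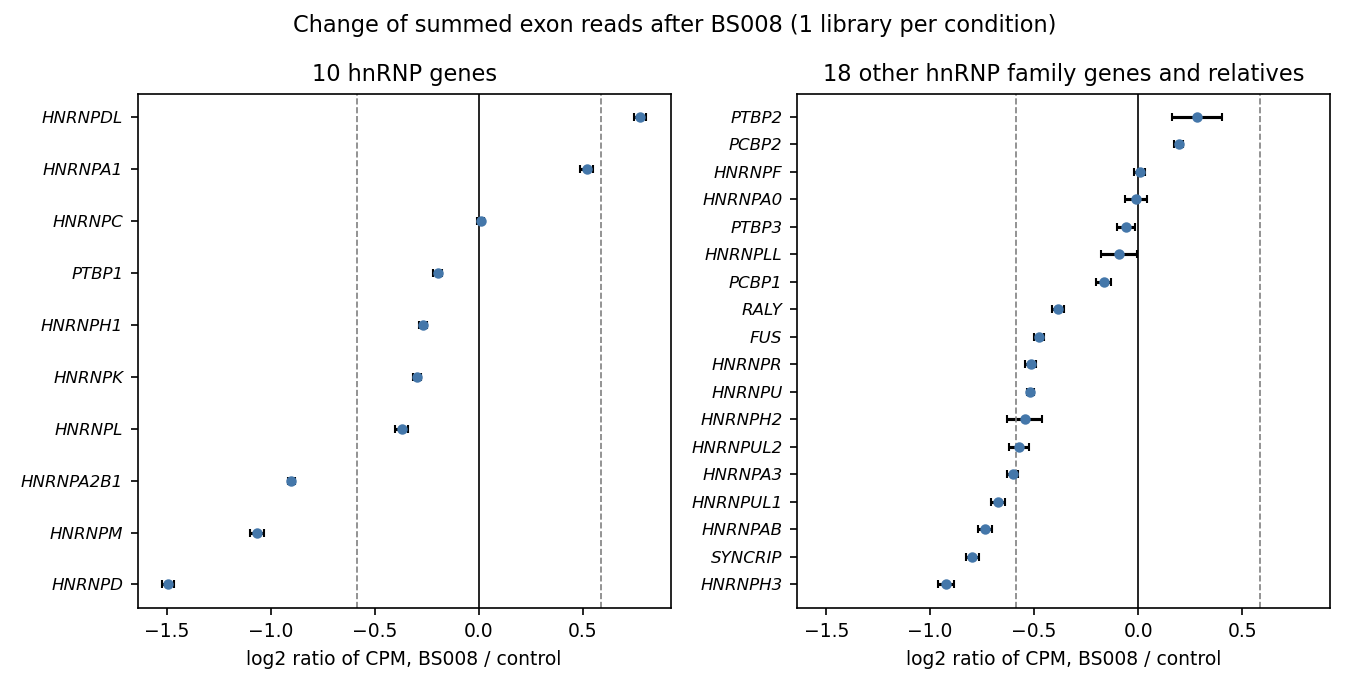
Log2 ratio of CPM (reads scaled to the library total), BS008 over control, for the 10 hnRNP genes and for 18 other genes of the family. Points are the summed exon reads of a gene in 1 library per condition, bars are 95% intervals of counting error, and dashed lines mark 1.5-fold. HNRNPD lies lowest at -1.49 and HNRNPDL highest at 0.78.

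HNRNPD, also called AUF1, binds AU-rich elements and is known for its part in the turnover of unstable mRNAs. On its 9 rows (chromosome 4, minus strand), 35563 reads were counted in the control and 12193 with BS008. This is 228 RPKM (reads scaled to row length and library total) against 81.1 RPKM, a 2.82-fold lower level, with a log2 ratio of -1.49 (95% interval -1.52 to -1.46). The level was thus 35.5% of the control, and only 1.70% of the runs of rows had a lower ratio.

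The HNRNPD rows did not move equally along the gene. The first row, of 551 bases (chr4:83294599-83295149), held 6858 reads in the control and 1722 with BS008, and its log2 ratio of -1.93 was the lowest of the gene. The eighth row, of 647 bases (chr4:83275908-83276554), held 2057 and 1044 reads, and its log2 ratio of -0.91 was the highest. All 9 rows were lower. The 4 rows at the 5′ end had a summed log2 ratio of -1.71 and the 4 rows at the 3′ end one of -1.26. Split in the same way, 7 of the 10 genes had the higher ratio at the 3′ end, so the direction was not particular to HNRNPD. The difference in HNRNPD, 0.45, was the largest of the 10 genes. No GENCODE exon of HNRNPD had the length of the first or of the eighth row.

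The alternative exons of HNRNPD decide which of its protein isoforms is made. Exon 2 (57 bases, chr4:83292681-83292737) held 1389 reads in the control and 395 with BS008. Its share of the reads on itself and both flanking rows was 10.4% (95% Wilson interval 9.86 to 10.9%) and 10.8% (9.79 to 11.8%). Such shares compare the libraries only, because rows differ in length and a share is not an inclusion level. Exon 7 (chr4:83277690-83277836) held 699 and 277 reads, a share of 11.5% (10.7 to 12.3%) and 10.6% (9.50 to 11.9%). Against the flanking rows the intervals of the libraries overlapped for both exons. Of all reads on the gene, exon 2 held 3.91% (3.71 to 4.11%) in the control and 3.24% (2.94 to 3.57%) with BS008, and these intervals did not overlap. The direction for exon 2 thus depended on the rows it was compared with, in a gene whose rows moved unequally. Exon 7 held 1.97% (1.83 to 2.12%) and 2.27% (2.02 to 2.55%) of the reads on the gene, with overlapping intervals and in the other direction than against its flanking rows.

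HNRNPDL, the closest paralog of HNRNPD and its neighbour on chromosome 4, moved in the opposite direction. Its 9 rows held 14561 reads in the control and 24069 with BS008, or 72.2 and 124 RPKM. The level was 1.71-fold higher, with a log2 ratio of 0.78 (0.75 to 0.81), and 90.6% of the runs of rows had a lower ratio. In control cells HNRNPD had the higher level of the pair per length, and with BS008 HNRNPDL did.

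Each of the 9 HNRNPDL rows was higher, with log2 ratios from 0.50 to 1.75. The first row, of 978 bases, held 1247 and 1712 reads and was the lowest. The row with most reads was the 171-base exon of 57 codons (chr4:83347616-83347786), which encodes a stretch rich in glycine and tyrosine near the end of the protein. It held 3329 and 5608 reads, and its share against the flanking rows was 48.0% (46.8 to 49.2%) and 47.1% (46.2 to 48.0%), with overlapping intervals. Of all reads on the gene it held 22.9% (22.2 to 23.6%) and 23.3% (22.8 to 23.8%), where the intervals overlapped as well and the sign was the opposite.

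The eighth HNRNPDL row, of 105 bases (chr4:83346716-83346820), stood apart. It held 229 reads in the control and 809 with BS008. Its log2 ratio was 1.75, and relative to the rest of the gene it was higher by 1.12 on the log2 scale. The share against the flanking rows was 5.99% (5.28 to 6.78%) in the control and 11.5% (10.8 to 12.2%) with BS008, and the intervals did not overlap. As the row was picked after values were seen, this is no independent check. By its length together with that of an adjacent row, this exon was found in 3 GENCODE transcripts of the gene, HNRNPDL-202, HNRNPDL-203 and HNRNPDL-209, all labelled as targets of nonsense-mediated decay, and in 0 protein-coding ones.

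**Figure D2:**
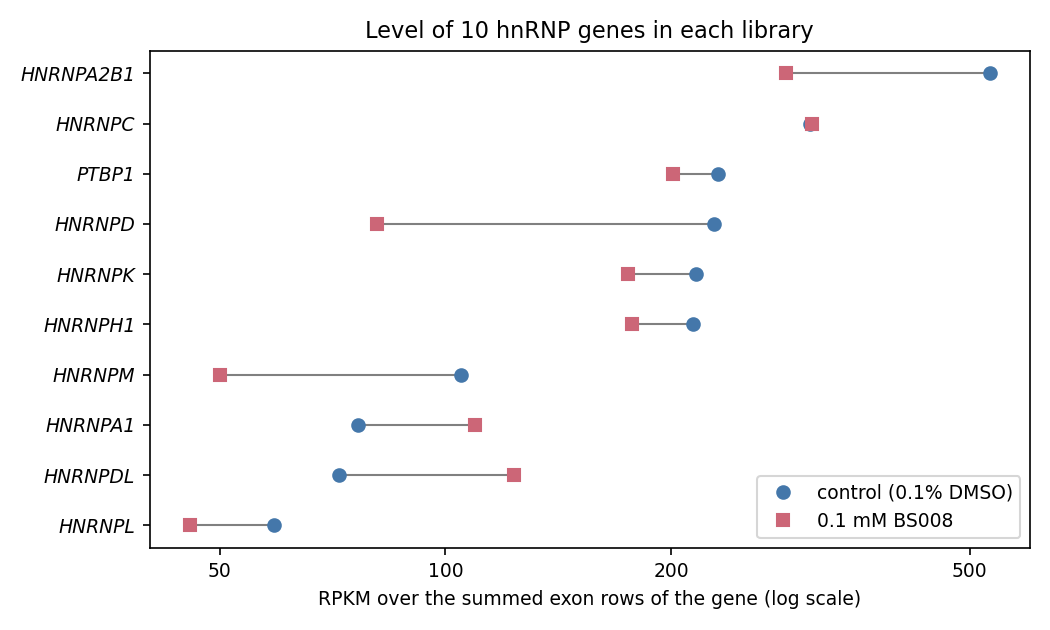
Level of the 10 hnRNP genes in RPKM (log scale), computed over the summed rows of each gene, in control (circles) and BS008 (squares), 1 library each. HNRNPD moves from 228 to 81.1 RPKM while HNRNPDL moves from 72.2 to 124 RPKM, so that their order is exchanged.

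HNRNPA1 and HNRNPA2B1 encode the main A/B type hnRNPs, which bind UAG-containing silencers and often repress exon inclusion. They also moved in opposite directions. HNRNPA1 held 13637 reads in the control and 18867 with BS008, or 76.4 and 109 RPKM. It was 1.43-fold higher, with a log2 ratio of 0.52 (0.49 to 0.55). HNRNPA2B1 held 109206 and 56473 reads, or 532 and 285 RPKM. It was 1.87-fold lower, with a log2 ratio of -0.90 (-0.92 to -0.89). HNRNPA2B1 had the highest level of the 10 genes in the control and came after HNRNPC with BS008.

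The 12 rows of HNRNPA2B1 were all lower and moved nearly together, with log2 ratios between -1.03 and -0.61. The row with most reads, the sixth (102 bases), held 14515 reads in the control and 7046 with BS008. The lowest ratio was on the seventh row, of 81 bases, with 13473 and 6363 reads. The highest was on the 36-base exon that distinguishes hnRNP B1 from hnRNP A2 (chr7:26237451-26237486), with 511 and 315 reads. Its share against the flanking rows was 4.202% (3.86 to 4.57%) and 4.69% (4.21 to 5.22%), with overlapping intervals.

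In HNRNPA1 the rows with few reads moved most. Rows 4 to 6 held nearly all reads of the gene, with 2341, 3007 and 7698 in the control and 2995, 4126 and 10126 with BS008, and log2 ratios of 0.40, 0.50 and 0.44. The first row (261 bases) went from 47 to 201 reads and the second (556 bases, chr12:54675170-54675725) from 89 to 397. The second row was higher than the rest of the gene by 1.70 on the log2 scale, the largest such value over all 10 genes.

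Both rows at the 3′ end of HNRNPA1 were also above the gene. The seventh row (71 bases, chr12:54680446-54680516) held 118 reads in the control and 425 with BS008, and the eighth (136 bases, chr12:54680737-54680872) held 50 and 159. Relative to the rest of the gene they were higher by 1.40 and 1.20 on the log2 scale. There were 1.52 and 4.13 reads on the seventh row for each 100 reads on its flanking rows, and the intervals of the shares did not overlap. The seventh row was picked for this comparison after values were seen. By their lengths both rows fell together in 1 transcript, HNRNPA1-205, which GENCODE labels as a target of nonsense-mediated decay. HNRNPA1 has many processed pseudogenes, and how reads that match several places were counted is not given in the sources used here, so its levels are uncertain.

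HNRNPM, which binds GU-rich sequences and is known as a regulator of splicing in carcinoma cells, held 22798 reads in the control and 10507 with BS008 on 16 rows. The level was 105 and 50.1 RPKM, 2.10-fold lower, with a log2 ratio of -1.07 (-1.10 to -1.03). All 16 rows were lower. The row with most reads, the tenth (102 bases), held 3599 and 1362 reads, with a log2 ratio of -1.33. The lowest was the row of 54 bases, the 13th, with 1009 and 340 reads and a log2 ratio of -1.45. The last row, of 1809 bases, held 1983 and 1456 reads, with a log2 ratio of only -0.39. Its share of the gene's reads was thus 8.70% in the control and 13.9% with BS008. In 8 of the 10 genes the last row had a higher ratio than the rest of its gene.

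HNRNPC, which binds uridine tracts and packages pre-mRNA, kept the same summed level. It held 62720 reads in the control and 60940 with BS008, or 307 and 309 RPKM, with a log2 ratio of 0.01 (-0.01 to 0.02). Of its 10 rows, 6 were higher and 4 were lower, with log2 ratios from -0.42 to 0.40, all within 1.5-fold. Among the lower rows, the ninth and the last were near no change, at -0.09 and -0.08. The last row, of 2428 bases, held most reads, with 28980 and 26458. HNRNPC also has pseudogenes, so reads may have been divided among copies.

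The 26-base row of HNRNPC (chr14:21731470-21731495) was the lowest relative to its gene. It held 2757 reads in the control and 1978 with BS008, while the rows on both sides of it in the spliced transcript, the first and the fifth, held 11880 and 13114. There were thus 23.2 and 15.1 reads on the exon for each 100 reads on the flanking rows. The share was 18.8% (18.2 to 19.5%) in the control and 13.1% (12.6 to 13.7%) with BS008, and the intervals did not overlap. This row was picked after values were seen, so the intervals are no independent check. The highest row relative to the gene was the fourth (168 bases), with 195 and 258 reads, which only 1 annotated transcript contains.

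The study lists RT-PCR primers for hnRNP C, which were placed on GENCODE transcripts to see which rows they span.
hnRNP C forward primer: agacgaagactgagcggttg
hnRNP C reverse primer: gagttcatggagcgaggatc
The product was 225 bp in 5 transcripts with the 26-base exon and 199 bp in 3 transcripts without it. In 2 further transcripts, which carry the 163-base exon as well, it was 388 bp. Products of 271, 471 and 556 bp were each found on 1 transcript. The one of 471 bp has an exon of 272 bases between the primers and none of 26 bases. Whether the longer exon contains those bases was not checked. The row of 163 bases held 282 reads in the control and 229 with BS008, far fewer than the 26-base row.

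PTBP1 encodes hnRNP I, the polypyrimidine tract-binding protein, which represses exons by binding CU-rich sequence. It is also one of the proteins to which the study docked BS008. Its 15 rows held 42098 reads in the control and 35448 with BS008, or 231 and 201 RPKM, with a log2 ratio of -0.20 (-0.22 to -0.18). The last row (1634 bases) held most reads, with 15425 and 13803. One row, the 14th (78 bases), was higher, with 1531 and 1609 reads, and the other 14 were lower.

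Of the alternative rows of PTBP1, exon 9 had the lowest ratio. Its inclusion gives a longer isoform of the protein with a changed linker between RNA-binding domains. The row of 78 bases (chr19:805492-805569) held 1218 reads in the control and 771 with BS008, with a log2 ratio of -0.59. The share against the flanking rows was 16.2% (15.4 to 17.1%) and 13.2% (12.3 to 14.1%), and the intervals did not overlap. Exon 9 was picked after values were seen.

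Skipping of exon 11 is the known route by which PTBP1 lowers its own mRNA. Its row (34 bases, chr19:807869-807902) held 1788 and 1507 reads, a share of 25.4% (24.4 to 26.5%) in the control and 26.3% (25.2 to 27.4%) with BS008, with overlapping intervals.

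The second PTBP1 row, of 38 bases (chr19:799406-799443), has the length of an exon of PTBP1-202 that ends with the 31 bases of the exon 2 printed above. GENCODE lists a 31-base exon in 10 of 21 PTBP1 transcripts and a 38-base one in 1. It held 333 reads in the control and 221 with BS008. The share was 26.1% (23.8 to 28.6%) and 21.6% (19.2 to 24.3%), and these intervals overlapped. The primers of the study for hnRNP I span this exon.
hnRNP I forward primer: tctccgccattttgtgagtc
hnRNP I reverse primer: tcaggaggttggtgaccttc
They gave a product of 366 bp on 2 transcripts, and without the 31-base exon it would be 335 bp.

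**Figure D3:**
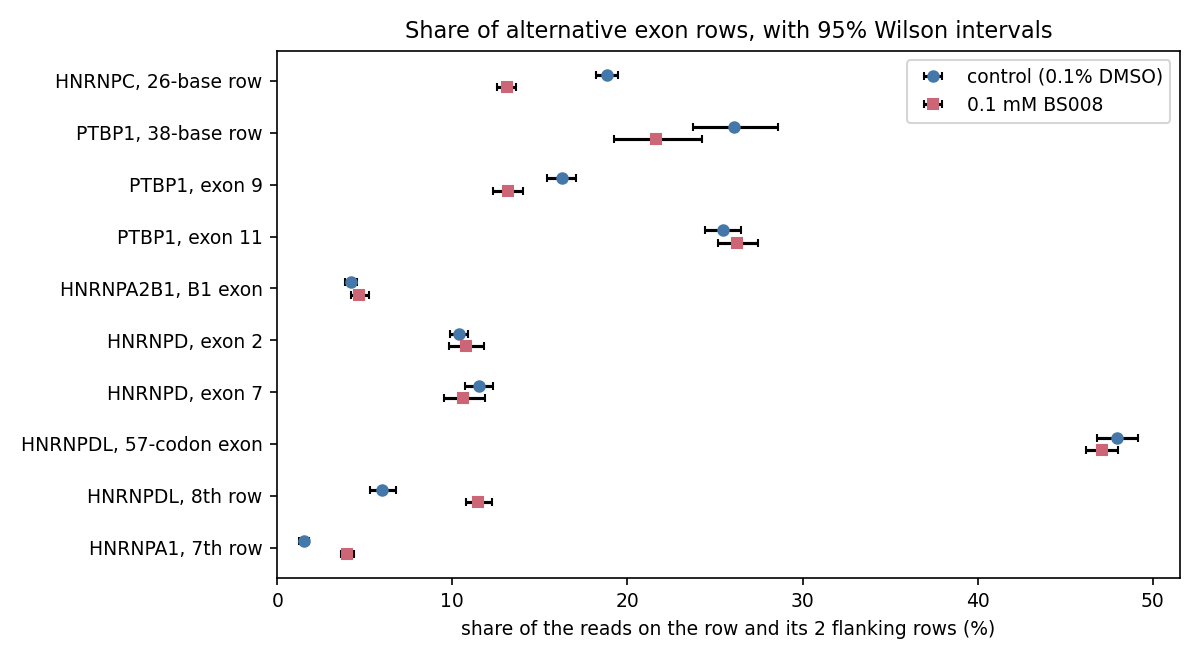
Share (%) of the reads on an alternative row and its flanking rows that fell on the row itself, in control (circles) and BS008 (squares), with 95% Wilson intervals for counting error. The HNRNPC 26-base row goes from 18.8 to 13.1% and the eighth HNRNPDL row goes from 5.99 to 11.5%, whereas the intervals overlap for the B1 exon, both HNRNPD exons and PTBP1 exon 11.

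HNRNPH1 binds runs of G, HNRNPK binds C-rich sequence through KH domains, and HNRNPL binds CA repeats. All 3 were slightly lower. HNRNPH1 held 46273 reads in the control and 37126 with BS008 (214 and 178 RPKM), with a log2 ratio of -0.27 (-0.29 to -0.25). HNRNPK held 52823 and 41468 reads (216 and 175 RPKM), with a log2 ratio of -0.30 (-0.32 to -0.28). HNRNPL held 18120 and 13532 reads (59.0 and 45.7 RPKM), with a log2 ratio of -0.37 (-0.40 to -0.34). It had the lowest RPKM of the 10 genes in both libraries. By reads it was not the lowest, as HNRNPA1 held 13637 in the control and HNRNPM 10507 with BS008.

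The rows of these 3 genes stayed close to their gene. In HNRNPH1 the last row (781 bases, 8337 and 7351 reads) held most reads, the first row (1633 bases, 1690 and 1606 reads) had the highest ratio relative to the gene, 0.25 on the log2 scale, and the 11th (50 bases, 2788 and 1848 reads) the lowest, -0.29. In HNRNPK the last row (1357 bases) held 9018 and 7390 reads. Its seventh row (1282 bases, 3273 and 2892 reads) was the highest relative to the gene, at 0.18, and its first (152 bases, 1450 and 895 reads) the lowest, at -0.36. The 110-base row of HNRNPK held only 4 and 3 reads and was the only one of the 121 rows under 20 counts. In HNRNPL the eighth row (2233 bases, 4058 and 2961 reads) held most reads. The first HNRNPL row, of 44 bases, had 20 and 19 reads, too few to place it, and the third (119 bases, 982 and 630 reads) was the lowest relative to the gene, at -0.23.

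Row by row, 120 rows reached 10 counts in a library, and of these 5 were higher and 15 lower by 2-fold or more on CPM (pseudocount 0.5). Over all 131330 rows that reached 10 counts, 3.73% were higher and 3.79% lower by this limit. The lower rows all came from HNRNPD, HNRNPM and HNRNPA2B1, which were lower as a whole. Relative to the rest of their own gene, 7 of 120 rows were at least 1.5-fold higher and 0 were at least 1.5-fold lower. No share over all rows can be given for this measure, because the files name no genes, and a comparison with the nearest rows takes its place. Of the 7 rows above their gene, 5 were at least 2-fold higher, namely rows 1, 2, 7 and 8 of HNRNPA1 and row 8 of HNRNPDL. The other two were row 8 of HNRNPD (0.61 on the log2 scale) and row 16 of HNRNPM (0.76). It was noticed after the values were seen that 3 of these 5 rows, namely rows 7 and 8 of HNRNPA1 and row 8 of HNRNPDL, are those that match annotated transcripts, by their own length and that of an adjacent row, only where the label is nonsense-mediated decay.

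**Figure D4:**
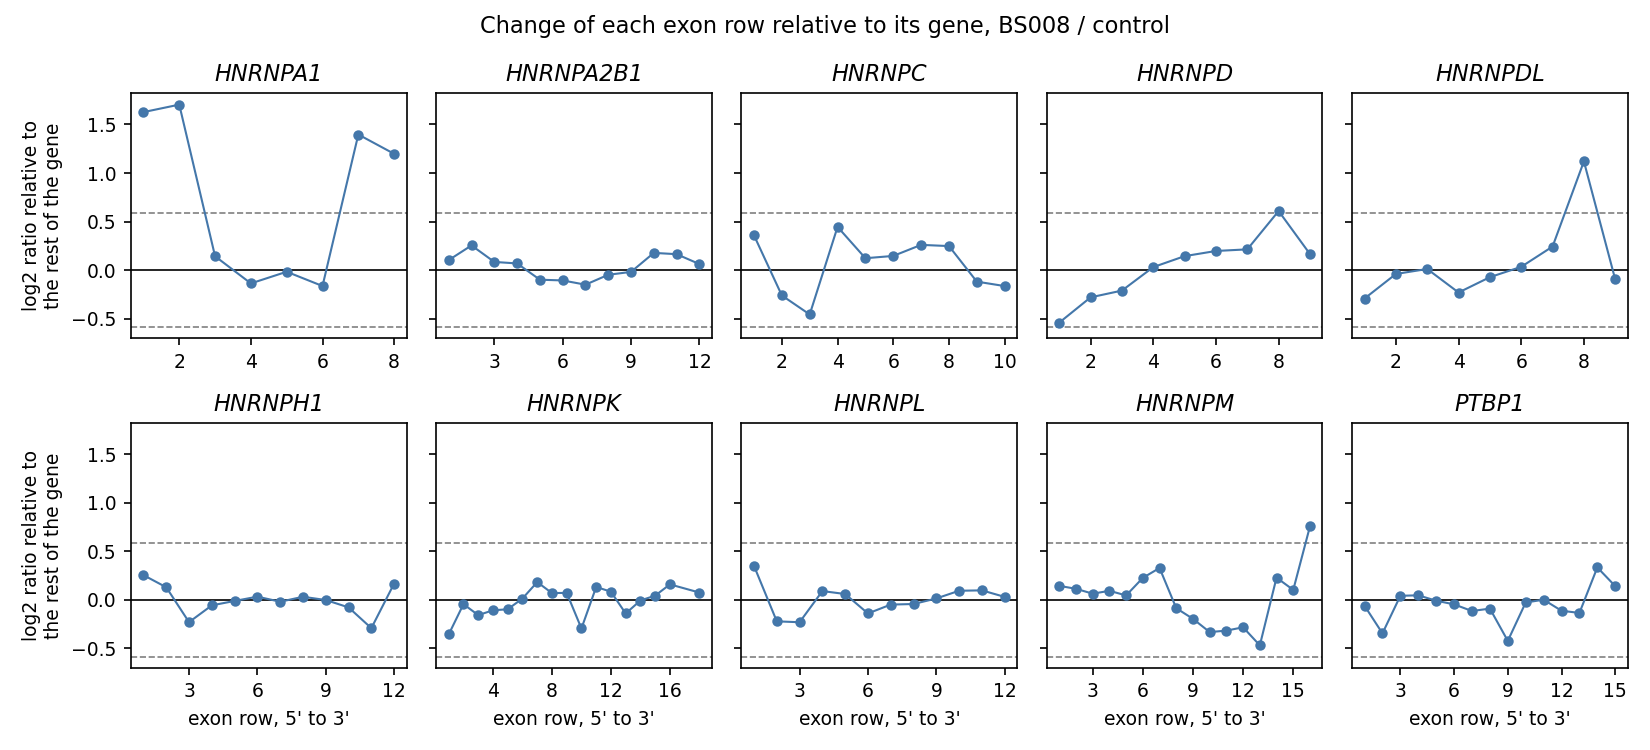
Log2 ratio of each exon row minus that of the other rows of its gene, in 5′ to 3′ order, for the 10 genes. Dashed lines mark 1.5-fold, and rows under 20 counts are left out. Rows 1, 2, 7 and 8 of HNRNPA1 and row 8 of HNRNPDL lie above 1, while HNRNPA2B1 stays between -0.15 and 0.26.

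A row can also be compared with the nearest row on either side within 10 kb, which can be done for all rows of the files. The row and its neighbours each had to reach 20 counts in a library. Of the 119 member rows that met this, 5 were at least 1.5-fold higher than their neighbours and 2 were at least 1.5-fold lower. Over the 106617 rows of the files that met it, the shares were 5.8% and 5.42%. At 2-fold, 3 member rows were higher and 2 lower, against 2.25% and 1.98% of all rows. The 5 were rows 2 and 7 of HNRNPA1, rows 1 and 4 of HNRNPC and row 8 of HNRNPDL. The 2 lower ones were the last row of HNRNPDL, which neighbours the 105-base row, and the first row of HNRNPM, whose only neighbour lies outside the gene.

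The rest of the family was read in the same way from 18 further genes. Of these, 3 had a ratio above 0 and 15 one below, with a median log2 ratio of -0.50. Those at least 1.5-fold lower were HNRNPH3 (-0.92), SYNCRIP (-0.80), HNRNPAB (-0.74), HNRNPUL1 (-0.67) and HNRNPA3 (-0.60), 5 of 18 against 18.6% of the runs of rows. HNRNPA3 lay nearest the limit, and the count was 4 when the libraries were scaled in other ways. None of the 18 was at least 1.5-fold higher, against 14.1%, and the highest was PTBP2, the neuronal paralog of PTBP1, at 0.28 (0.16 to 0.41) on 1025 and 1205 reads. The windows of these 18 genes were checked against annotated exon lengths only. For HNRNPA0 (1 row), HNRNPH2 (2 rows) and PCBP1 (1 row), 0 rows had the length of an annotated exon, so this check gave them no backing.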

How the data were processed

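RNA of 1 control library and 1 BS008 library of Huh-7 cells was analysed. Per exon row, 239322 in all, the authors deposited raw read counts. The authors also deposited RPKM values, scaled to row length and summed counts, which recomputation returned to within 4.7e-06. The build, hg19, is from the submitters' processing notes. The aligner, counting tool and annotation are not given in the sources used here. No test was made.

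Rows were assigned to genes by hg19 windows, and their lengths were compared with exons of GENCODE release 29 (GRCh38), without converting coordinates. 99 of 121 rows (81.8%) had the length of an exon of their gene, and 220 of 265 rows of the other genes did. 0 member rows overlapped a row on either strand. CPM used the summed counts, and gene ratios have exact binomial 95% intervals. Row ratios used a pseudocount of 0.5 CPM and at least 10 counts. Values relative to a gene used 0.5 counts and at least 20 counts in the higher library. Named were all 10 genes, for each the row with most reads and the highest and lowest relative row, all rows 2-fold off their gene, and known exons matched by length. HNRNPA1 exon 7B and PTBP1 exon 9 were not matched, because their lengths recur within a transcript. The HNRNPM 39-codon exon had no row of its length. The HNRNPC 26-base row, PTBP1 exon 9 and the 38-base row, the eighth row of HNRNPDL and the seventh of HNRNPA1, whose shares or reads against flanking rows are given, were picked after values were seen. The members and lists were chosen with earlier results of these data known. Computations used Python 3.11.15, numpy 2.4.6, pandas 2.3.3 and scipy 1.17.1. TMM factors came from edgeR 4.0.16 in R 4.3.3. Scripts were tested on simulated data. Alternatives were other scalings, thresholds, pseudocounts, count minimums and reference rows.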

Additional observations from a re-analysis of the deposited data

How the results depend on the processing

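The summed log2 ratios of the 10 genes kept their direction under TMM, median-of-ratios and non-mitochondrial scaling, which shift all values by 0.05, 0.03 and 0.02. The count of genes at least 1.5-fold higher was 1, and it was 2 when a gene was read as the median of its rows, 2 without the row with most reads (an alternative chosen after seeing the data), 2 at a limit of 0.32 on the log2 scale and 0 at 2-fold. By the row median and without the largest row, HNRNPA1 joined HNRNPDL, with log2 ratios of 0.96 and 0.61. Of the 18 other genes, 5 were lower at 1.5-fold and 0 at 2-fold. At 1.5-fold the count was 4 under TMM, median-of-ratios and non-mitochondrial scaling. At 1.5-fold, 12 member rows were higher and 37 lower of 120, against 11.5% and 13.9% of all rows, in place of 5 and 15 at 2-fold. The share of higher member rows was thus no larger than that over all rows. Rows at least 1.5-fold below their gene numbered 0, and 2 against the nearest rows. The change in share of HNRNPD exon 2 was -0.67 percentage points of the gene and 1.82 points against the nearest row within 10 kb, as its other flanking row lies farther away. The sign also turned between these references for HNRNPD exon 7 (0.31 and -0.89) and the HNRNPDL 57-codon exon (0.44 and -0.88, and -0.42 on RPKM), for which the intervals on counts overlapped. The other counts stayed within 1.5 times of their value. No paired analysis was possible because each condition has 1 library, and for the same reason no library could be left out. Culture-to-culture variation was not measured, and with 1 library per condition BS008 cannot be told apart from any other difference between the libraries.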
